A study of Mus musculus with 16 samples.

Results

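The members described here are the 3'UTRs that carry a prediction of activation by cytoplasmic polyadenylation elements (CPEs) of any kind except the early strong kind. They were found by the words of the deposited Prediction column alone, as rows with a gene symbol whose prediction includes ACTIVATION but not ACTIVATION EARLY STRONG, and no measured value entered the choice. The rule took 2210 of 30622 3'UTR regions with a symbol, or 7.22%, from 1544 of 14925 genes. The 2210 rows have 1895 different coordinates, since transcripts of a gene can share a 3'UTR, and rows of 1 gene share reads. For 577 of the 1544 genes another region has no prediction, for 189 another has a repression prediction alone, for 67 another is predicted early strong, and for 859 every region of the gene is a member.

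The study sequenced RNA that an anti-CPEB4 antibody pulled down (RNA immunoprecipitation, RIP) from formaldehyde-crosslinked bone marrow-derived macrophages (BMDMs) of mice, together with the RNA of the whole lysate (Input, depleted of ribosomal RNA). The cells were wild-type (WT) or CPEB4 knockout (KO). They were untreated or had received lipopolysaccharide (LPS, a bacterial cell wall component that macrophages sense) at 10 ng/ml for 9 h. The sample titles number every WT sample 76 and every KO sample 73, without saying what the numbers stand for. The strain label of every sample was C57BL/6J 129. The 16 GEO samples are 8 libraries, each run on flow cell lanes 7 and 8. Every combination of genotype, treatment and assay is thus covered by 1 library. The labels do not say how many cultures of each genotype were used. The KO RIP holds the RNA that came down without CPEB4 and serves as the background of the WT RIP. With no replicate, every test below compares 2 libraries, not 2 conditions, and intervals cover counting error only.

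CPEB proteins bind U-rich CPEs in 3'UTRs and can hold an mRNA silent with a short poly(A) tail or, once phosphorylated, recruit the polyadenylation machinery to lengthen the tail and start translation. Which of these happens, and when, was worked out in maturing oocytes, where it depends on how many CPEs a 3'UTR has and on how far they lie from the polyadenylation hexamer. The prediction words (early or late, strong or weak, with or without REPRESSION) name these arrangements in that system and not the timing of an LPS response.

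In early weak 3'UTRs with a hexamer, a CPE lies 46 to 100 bases before the hexamer, 0 to 2 bases before it, or 0 to 30 bases after it. In the late classes a CPE overlaps the hexamer and has a partner CPE, within 45 bases before it for late strong, and 46 to 100 bases before it or downstream of the hexamer for late weak. Biphasic 3'UTRs have a CPE 0 to 2 bases before the hexamer and a partner at most 36 bases before that CPE. REPRESSION is added where CPEs lie within 50 bases of each other. The motifs were searched on the transcript's strand only: the hexamers AATAAA and ATTAAA, the canonical CPEs TTTTAT and TTTTAAT, the non-canonical CPEs TTTTACT, TTTTAAAT, TTTTAAGT and TTTTCAT, and the Pumilio element TGTANATA, which lets some non-canonical CPEs count. A hexamer near the end was found in 60.2% of all regions, a canonical CPE anywhere in 47.9%, and a non-canonical CPE in 33.7%.

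The sites below were chosen to show each arrangement in a gene whose values follow. The letters are from the mouse genome, build mm10 (GRCm38), 5' to 3' on the strand of the transcript, with the CPE and, where the window reaches it, the hexamer in capitals. In Hnrnpd (late weak) the CPE and the hexamer overlap in 1 run of capitals and the partner lies 95 bases before the hexamer. In Snx18 (late strong) the partner lies 41 bases before the hexamer.
Hnrnpd, overlapping CPE and hexamer, chr5:99961008-99961037, minus strand: cttactggttTTTTAATAAAtccttttgta
Hnrnpd, partner CPE, chr5:99961111-99961132, minus strand: aatttgtgTTTTATgccccccc
Snx18, overlapping CPE and hexamer, chr13:113592190-113592218, minus strand: gtttctgttTTTTAAATAAActatcacac
Snx18, partner CPE, chr13:113592238-113592259, minus strand: tggcaccgTTTTATttgttact
Zdhhc21, overlapping CPE and hexamer, chr4:82798746-82798774, minus strand: aaatcttatTTTTAAATAAAtatttttga

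In the biphasic Slc7a8 the CPE next to the hexamer is the non-canonical TTTTCAT and the canonical partner lies 33 bases before the hexamer. In Abi1, also biphasic, the adjacent CPE touches the hexamer, so both read as 1 run of capitals.
Slc7a8, adjacent CPE and hexamer, chr14:54722220-54722248, minus strand: tattttcTTTTCATgtAATAAAattttaa
Slc7a8, partner CPE, chr14:54722258-54722279, minus strand: gttttaaaTTTTATtggtttgt
Abi1, adjacent CPE and hexamer, chr2:22940375-22940404, minus strand: tatctagtcTTTTATAATAAActatgctcc
Abi1, partner CPE, chr2:22940394-22940415, minus strand: tgtctaaaTTTTATctagtctt

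The early weak 3'UTRs are shown by their 3 placements. The CPE touches the hexamer in Prkar2b, follows it in Txnip, Cxcl1 and Pum2, and lies 58 bases before it in Csgalnact2 and 56 bases before it in Ctsa. Armc10 stands for the early weak 3'UTRs that have no hexamer near their end, and its CPE starts at base 15 of the region.
Prkar2b, chr12:31958476-31958496, minus strand: aaagcacacTTTTATAATAAA
Txnip, chr3:96561832-96561857, plus strand: aaaaaaaAATAAAgttTTTTAATgac
Cxcl1, chr5:90893091-90893115, plus strand: gaagtaaaAATAAAagTTTTATtaa
Pum2, chr12:8751427-8751454, plus strand: tgtataATTAAAatcgtTTTTAATcctt
Csgalnact2, chr6:118107529-118107554, minus strand: ttaaactagcTTTTATttgaagatgg
Ctsa, chr2:164840945-164840970, plus strand: ataagtatggTTTTATctaaggaaat
Armc10, chr5:21661623-21661648, plus strand: ttgctcctatTTTTATcaaagactca

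Most of the members were early weak. This word covered 1835 regions with a hexamer, of which 1203 owed it to a far CPE alone, 452 to a downstream CPE alone and 106 to an adjacent CPE alone. A further 173 early weak regions had no hexamer near the 3' end. The late strong class held 75 regions, the late weak class 79 and the biphasic class 48. REPRESSION stood beside the activation word in 972 members, or 44.0%, against 18.9% of all regions with a symbol and 45.4% of early strong regions. It accompanied all 75 late strong and all 48 biphasic regions, whose definition needs CPEs close together, and 62 of 79 late weak regions.

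**Figure D1:**
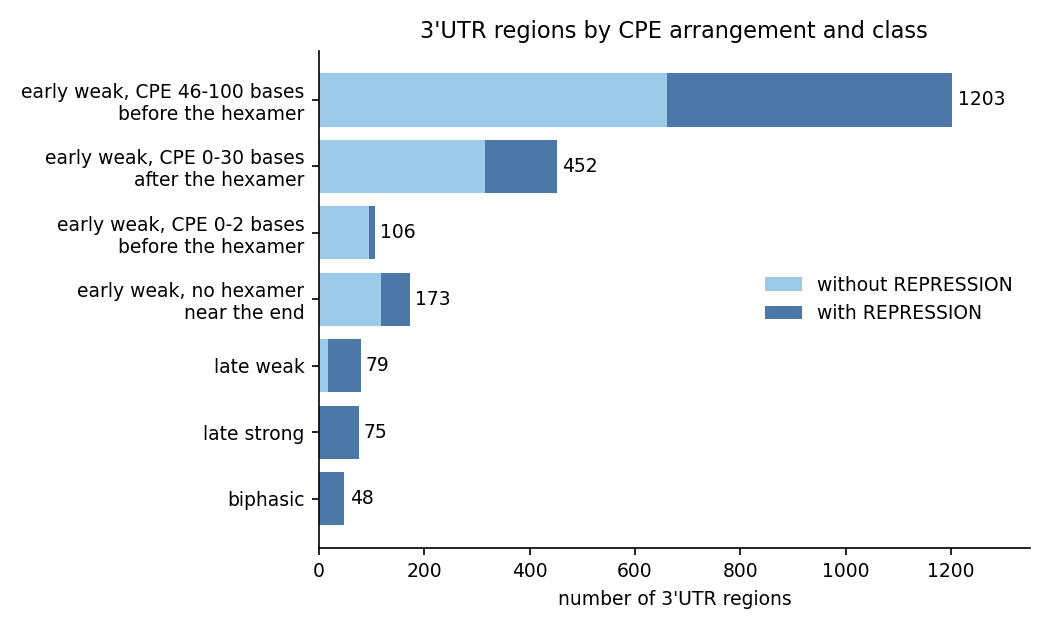
Number of member 3'UTR regions (x axis) by class and CPE arrangement (y axis), with the regions that also carry REPRESSION in dark blue. The far arrangement leads with 1203 regions and the biphasic class is smallest with 48; early weak regions with more than 1 arrangement are not drawn.

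The class and the REPRESSION word followed from the mm10 sequence by these rules in 2037 of 2037 members with a hexamer. The other 173 members had no AATAAA or ATTAAA within the last 30 bases or so. In all 173 a canonical CPE started at base 7 to 37 of the region, and all 173 regions of the table with a symbol, no hexamer and such a CPE were members. Their early weak word thus goes with a distance from the start of the region. They are called the no-hexamer members below.

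Compared with all regions, the member 3'UTRs were long and AU-rich. Their median length was 1063.5 bases against 671 over all regions, and their median GC content 40.9% against 46%. At least 2 AUUUA pentamers, the core of the AU-rich elements that decay factors bind, were present in 59.0% of members and in 36.4% of all regions. The hexanucleotide TTTTGT, a G-containing CPE variant that the prediction does not use, was present in 66.2% of members and in 45.3% of all regions. A Pumilio element, which the prediction uses for some non-canonical CPEs, was present in 27.1% of members and 19.1% of all regions. Per kb, members had 2.16 AUUUA and 1.30 TTTTGT, against 1.75 and 1.13 over all regions. These traits were not particular to members. Early strong regions had a median of 1055 bases and 42.2% GC. Of them 52.9% had at least 2 AUUUA pentamers, 64.6% TTTTGT and 32.4% a Pumilio element. Regions with REPRESSION alone had 1886 bases, 77.9% and 82.9% for the first 2 motifs. Members with REPRESSION were longer (median 1635 bases) than those without (769 bases), and 74.7% of them had at least 2 AUUUA pentamers against 46.8%.

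The hexamer itself differed between classes. ATTAAA, the less common of the pair, took the place of AATAAA in 24% of members with a hexamer and in 20.9% of all regions with a hexamer. In the smaller classes the share was 36% for late strong, 34.2% for late weak and 33.3% for biphasic, counts of 27, 27 and 16 regions. In early weak regions with an adjacent CPE alone it was 21.7%, or 23 of 106, near that of all regions. The overlapping CPE of the late classes shares letters with the hexamer, and the adjacent CPE of biphasic regions does not. The part of this in the shares was not tested. The no-hexamer members stood apart in length, with a median of 514 bases, and 16.8% of them belonged to transcripts annotated for nonsense-mediated decay, against 2.42% of members with a hexamer and 10.3% of all regions. Regions with neither a hexamer nor a prediction were alike in this, with 23.4% and a median length of 263 bases.

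The 8 libraries held between 467696 (untreated KO RIP) and 2492300 (LPS WT RIP) 3'UTR reads, 27.3% to 70.1% of the library totals behind the deposited RPKM. Levels are given in CPM, a region's reads per 1000000 3'UTR reads of the library, and levels of different genes are not compared, because CPM is not per length. The Cpeb4 3'UTR, which carries REPRESSION alone and is no member, was at 130 and 136 CPM in the WT Inputs and at 52.0 and 52.6 CPM in the KO Inputs, untreated and LPS. All 7 macrophage marker genes were in the table, with a summed level of 2360 to 3520 CPM in the Inputs. In the RIPs they summed to 2110 CPM in untreated WT, 4450 CPM in untreated KO, 1570 CPM in LPS WT and 2960 CPM in LPS KO, and the part of this in the ratios below was not tested. Markers of neutrophils, B cells, T cells, dendritic cells and fibroblasts each summed to at most 9.05 CPM in any Input, and S100a8, Ms4a1, Cd3e and Dcn had no read in any Input. These sums cover the markers that had a region, 2 of 6 for neutrophils and 2 of 4 for fibroblasts. For B cells and for T cells they were 3 of 4, and for dendritic cells 3 of 3.

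Members took a larger share of the 3'UTR reads in the RIPs than in the Inputs, and most in the WT RIPs. The share was 11.8% in the untreated WT RIP and 12.4% in the LPS WT RIP. It was 10.5% and 10.7% in the KO RIPs and 8.70% to 9.64% in the 4 Inputs. Both WT RIPs were thus above both KO RIPs, and all 4 RIPs above all 4 Inputs.

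The question of the RIP is which of these 3'UTRs came down with CPEB4, and the comparison of the WT RIP with the KO RIP addresses it. A region was tested with at least 10 reads over the pair of libraries by a Pearson chi-square test of its reads against all other 3'UTR reads. It was called with a Benjamini-Yekutieli adjusted p under 0.02 and an absolute log2 ratio over 0.5, or an unadjusted p under 0.02 and an absolute log2 ratio over 1.2, with 1 read added to each library. In untreated cells 1339 members were tested, 118 regions of 87 genes were called higher in the WT RIP, and 54 regions of 38 genes higher in the KO RIP. These are 8.81% and 4.03% of the members tested, against 5.82% and 9.79% of all 15182 regions tested. The median log2 ratio was 0.16 for members and -0.13 for all regions.

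After LPS the counts were larger in both directions. Of 1393 members tested, 213 regions of 146 genes were higher in the WT RIP and 86 regions of 57 genes higher in the KO RIP. The shares were 15.3% and 6.17%, against 9.40% and 15.8% of all 15893 regions. The median log2 ratio was 0.25 for members and -0.10 for all regions. With a minimum of 1 read in place of 10 the member medians were -0.08 untreated and 0.0028 after LPS, against -0.51 and -0.52 for all regions. The KO RIPs were the shallower of each pair, and 433 untreated and 314 LPS members passed the minimum with at least 10 reads in the WT RIP and under 10 in the KO RIP.

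Early strong 3'UTRs, the most similar group, were close to the members. They had a median log2 ratio of 0.25 untreated and 0.29 after LPS, with 9.44% and 15.5% of those tested higher in the WT RIP. Regions with no prediction had medians of -0.33 and -0.35, with 4.04% and 5.88% higher in the WT RIP. Regions with REPRESSION alone, at 0.17 and 0.29, were also close to the members. No test between classes was made, since regions are not replicates.

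**Figure D2:**
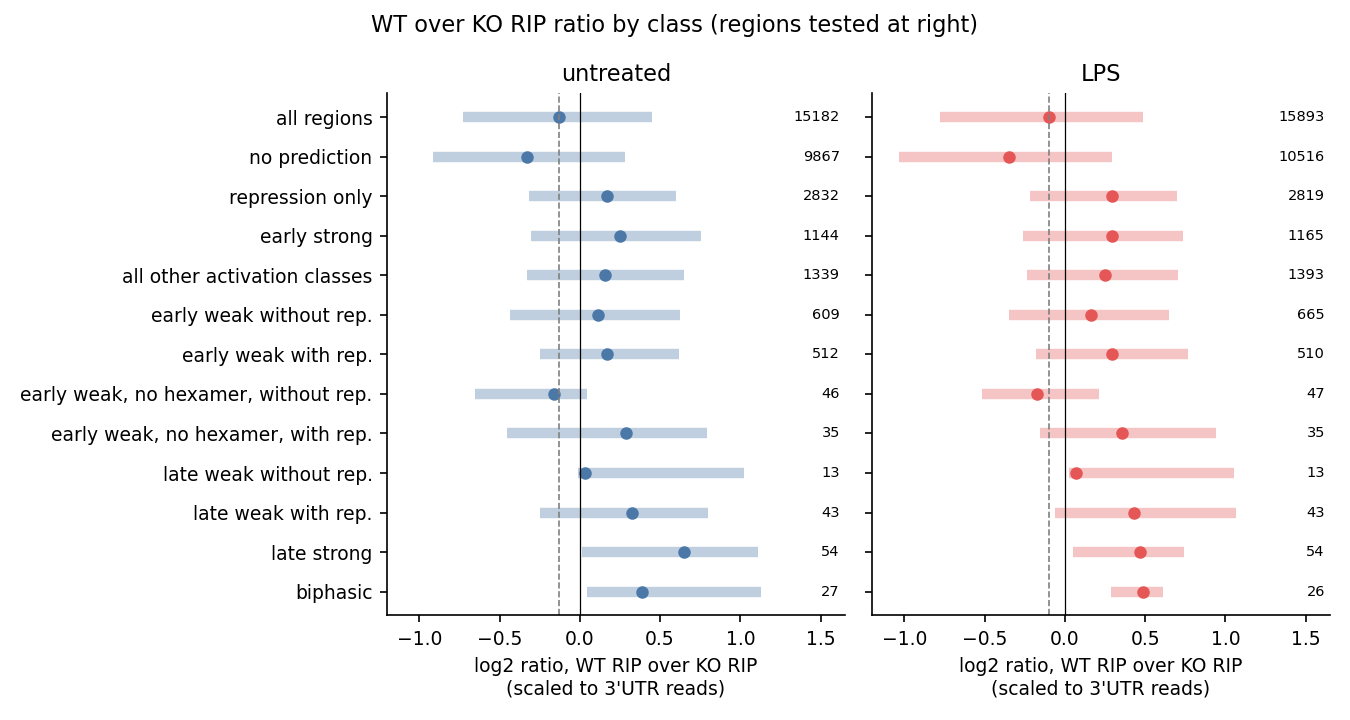
Log2 ratio of the WT RIP over the KO RIP (x axis) by class (y axis; rep. is REPRESSION), untreated in blue and LPS in red, with the median as a point, the middle 50% of regions as a bar and the number tested at right. The dashed line is the median of all regions; the late strong median is 0.65 untreated and 0.47 after LPS, and early weak regions without hexamer and without REPRESSION are at -0.16 and -0.17.

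How the libraries are scaled moves all ratios together. On the library totals behind the deposited RPKM every log2 ratio was higher by 0.84 untreated and 1.14 after LPS, with TMM by 0.23 and 0.34, and with median-of-ratios factors by 0.11 and 0.16. The split of the member calls moved with it. In the main scaling 68.6% of the untreated and 71.2% of the LPS calls were toward WT. This became 99.2% and 99.6% on library totals, 87.6% and 93.1% with TMM, and 78.6% and 86.4% with median-of-ratios factors. The distance between the member median and the median of all regions, 0.29 untreated and 0.35 after LPS, does not depend on the scaling, and under these scalings the share of members called toward WT stayed above that of all regions.

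Within the members, the late strong class had the highest median in untreated cells, and the biphasic class, described below, the highest after LPS. Of its 54 regions tested in untreated cells, 13 regions of 10 genes were higher in the WT RIP and none in the KO RIP, with a median log2 ratio of 0.65. After LPS 9 regions of 8 genes were higher in the WT RIP and 2 in the KO RIP, with a median of 0.47. With 1 region per gene the medians were 0.37 and 0.29, lower both times. The KO RIP calls after LPS were Aldh7a1 and Armc7, named after their values were seen.

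Late weak 3'UTRs had a median of 0.31 untreated and 0.36 after LPS. In untreated cells 4 of 56 regions were higher in the WT RIP, 3 of them Hnrnpd and the other Kdelr2, and 1 was higher in the KO RIP, Son. After LPS 12 of 56 regions of 7 genes were higher in the WT RIP and 2 regions of Als2cl higher in the KO RIP. Kdelr2, Son and Als2cl were named after their values were seen.

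Biphasic 3'UTRs had a median of 0.39 untreated and 0.48 after LPS. In untreated cells 4 of 27 regions were higher in the WT RIP, from Cdca7, Slc19a2 and Slc7a8, and after LPS 8 of 26, of which 5 were transcripts of Abi1 and the others Slc19a2 and Slc7a8. None was higher in the KO RIP under either treatment. The 8 LPS regions are thus 3 genes, and Cdca7 was named after its values were seen.

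Early weak 3'UTRs with a hexamer set the member values. Of 1121 tested untreated, 90 were higher in the WT RIP and 47 in the KO RIP, with a median of 0.15, and of 1175 after LPS 174 and 74, with a median of 0.25. The placement of the CPE went with small differences in the median. It was 0.11 untreated and 0.20 after LPS for a far CPE, 0.25 and 0.30 for a downstream CPE, and 0.10 and 0.38 for an adjacent CPE.

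Members with REPRESSION had a higher median ratio than those without. Their median log2 ratio was 0.23 against 0.07 in untreated cells and 0.35 against 0.13 after LPS. Among 668 members with REPRESSION tested after LPS, 131 were higher in the WT RIP and 26 in the KO RIP. Among 725 without it the counts were 82 and 60. In untreated cells the counts were 62 and 20 of 671 with REPRESSION, and 56 and 34 of 668 without. Members with REPRESSION are longer, and among regions of similar length the distance was wide in short 3'UTRs and small in long ones. From 500 to under 1000 bases the medians were 0.54 with and 0.04 without REPRESSION untreated, and 0.60 and 0.04 after LPS. From 1000 to under 2000 bases they were 0.27 and 0.18 untreated and 0.42 and 0.42 after LPS, and from 2000 bases 0.13 and 0.11 untreated and 0.25 and 0.20 after LPS. The order turned in 2 of the GC bins, at 40 to 45% GC untreated (0.13 with and 0.17 without) and under 35% GC after LPS (0.42 and 0.44).

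The no-hexamer members split by the same word. Their median was -0.04 untreated and -0.06 after LPS, the lowest of the member classes. The 35 tested with REPRESSION were at 0.29 and 0.36, and those without at -0.16 (46 tested) and -0.17 (47 tested). The 2 sets also differed in length, with medians of 1369.5 bases with REPRESSION and 253 bases without. Transcripts annotated for nonsense-mediated decay made up 0.0% and 24.8% of them. The part of these differences in the ratios was not tested. With 1 region per gene the median of all no-hexamer members changed sign, to 0.08 untreated and 0.51 after LPS. With at least 50 reads it was 0.08 and 0.31. After subtracting the Input ratio it was 0.40 and 0.25, beside 0.33 and 0.26 for all members. The low rank of these members thus depends on these settings.

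**Figure D3:**
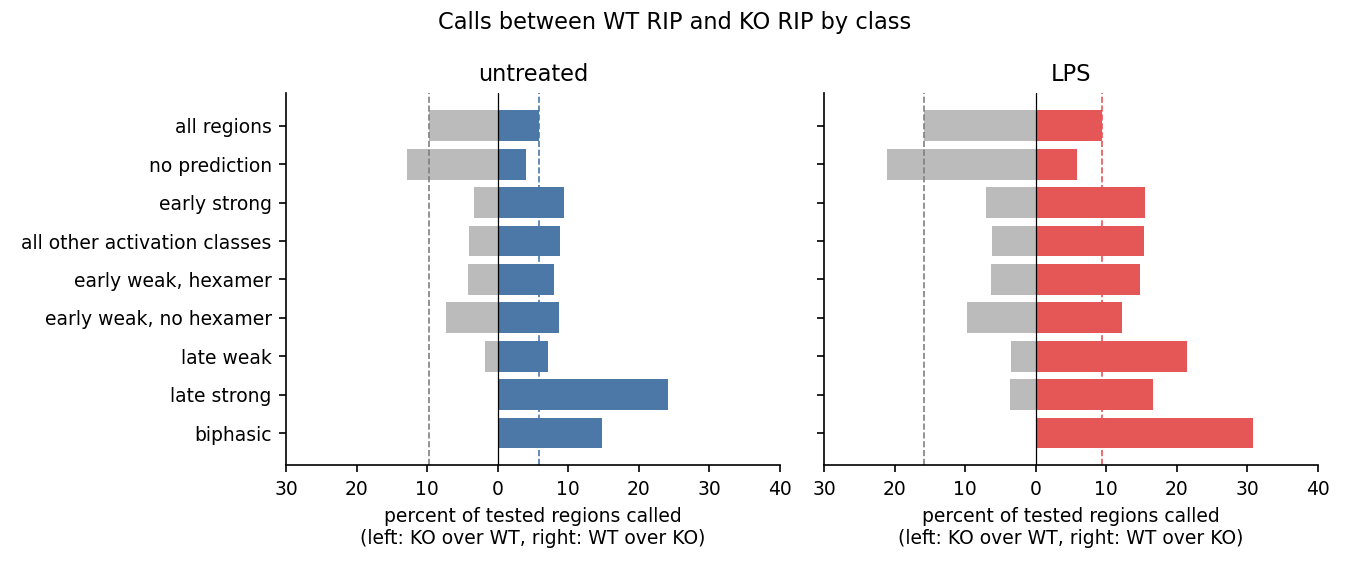
Share of the tested regions of each class (y axis) that was called, in percent (x axis), with calls toward the WT RIP to the right in color and toward the KO RIP to the left in gray; dashed lines mark the shares of all regions. Late strong (24.1% untreated) and biphasic (30.8% after LPS) regions reach farthest right, on 13 and 8 regions.

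GC content and length differ between members and other regions and moved with the ratio. Over 1139 untreated and 1192 LPS members with different coordinates, Spearman's rho of the ratio with GC content was -0.09 and -0.22, and over all regions -0.25 and -0.38, as a description of regions that share the same libraries. Among regions with under 35% GC the median was 0.29 untreated and 0.42 after LPS for members, against -0.03 and 0.13 for regions with no prediction. Among those with 50% GC or more it was 0.10 and 0.07 for members against -0.57 and -0.74. In that bin more members were called toward KO than toward WT after LPS, 18.6% against 7.45%. Over all regions of the bin these were 30.4% and 3.35%. Untreated, 5.06% of members were called toward KO and 7.87% toward WT, with 16.1% and 3.95% over all regions. The members' median lay above that of regions with no prediction in each of the GC bins drawn and under both treatments.

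**Figure D4:**
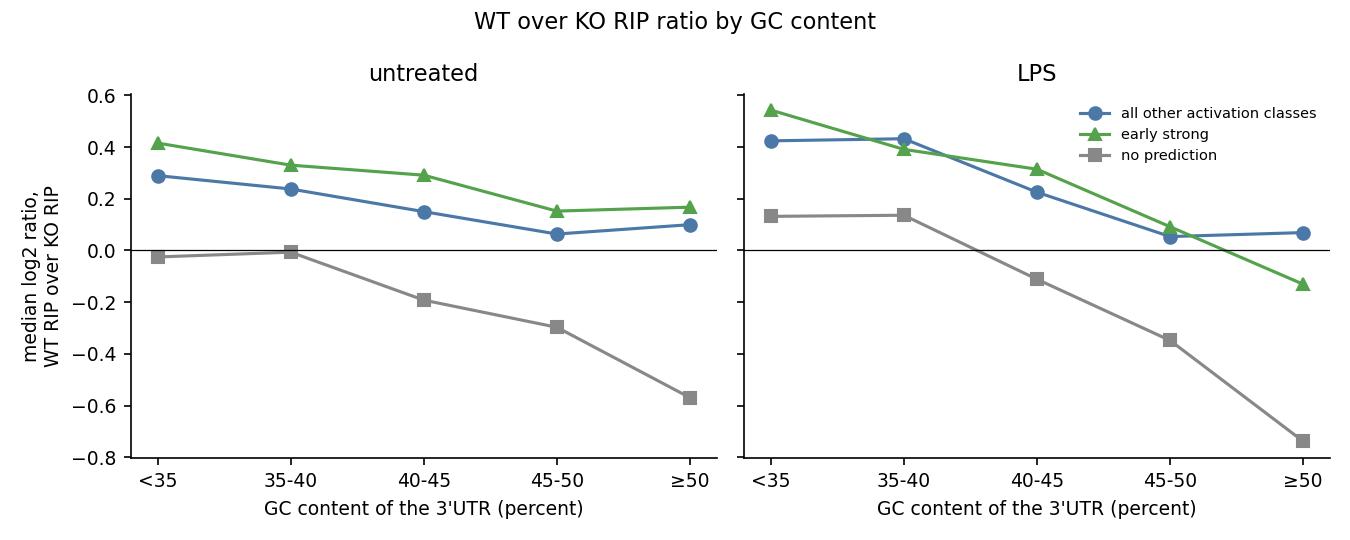
Median log2 ratio of the WT RIP over the KO RIP (y axis) by GC content of the 3'UTR in percent (x axis), for members (blue circles), early strong regions (green triangles) and regions with no prediction (gray squares). The distance between members and regions with no prediction is wider at 50% GC or more (0.10 against -0.57 untreated) than under 35% (0.29 against -0.03).

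Some regions were called under both treatments. Of the WT RIP calls, 75 regions of 55 genes were shared, which is 63.6% of the untreated list and 35.2% of the LPS list. Of the KO RIP calls, 28 regions of 20 genes were shared, or 51.9% and 32.6%. No member was called in opposite directions. The matching shares over all called regions were not computed, so this overlap is not read as particular to members. The difference between the treatments was also tested directly, by a z test on the log2 ratios of regions whose reads numbered 10 or more in every RIP. It passed a Benjamini-Hochberg adjusted p of 0.05 in 25 of 765 members (17 higher with LPS, 8 higher untreated), which is 3.27% against 2.12% of all 7844 regions tested. The log2 ratio had the same sign under both treatments in 599 of these 765 members and in 6284 of the 7844 regions.

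Between the Inputs the members differed little. In untreated cells 8 members were higher in the WT Input and 21 in the KO Input of 1181 tested, against 1.01% and 1.37% of all regions, and the median log2 ratio was -0.12. After LPS the counts were 5 and 21 of 1254, against 1.43% and 1.33%, with a median of 0.01. In such bulk RNA, fewer cells of a type and less RNA per cell cannot be told apart. When the Input ratio was subtracted from the RIP ratio, the member median was 0.33 untreated and 0.26 after LPS, and lay 0.40 and 0.41 above that of all regions.

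Set against its own Input, each RIP held members above the level of all regions, the WT RIPs more than the KO RIPs. The median log2 ratio of RIP over Input was 0.64 in untreated WT and 0.59 in LPS WT, and 0.25 in both KO treatments, against -0.08 to 0.02 over all regions. In untreated WT 528 of 1359 members were higher in the RIP and 102 in the Input (all regions 22.6% and 21.6%). In LPS WT the counts were 555 and 152 of 1404 (23.6% and 28.1%), in untreated KO 227 and 85 of 1194 (14.0% and 8.57%), and in LPS KO 275 and 114 of 1231 (15.8% and 11.8%). In WT, 366 of the 1359 untreated and 218 of the 1404 LPS members had at least 10 reads in the RIP and under 10 in the Input. In KO these were 40 of 1194 and 76 of 1231. The medians thus rest in part on regions admitted through the RIP alone, more so in WT.

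The no-hexamer members showed the reverse order to their WT over KO ratio before Input correction. They had the highest RIP over Input median among the member classes in the WT RIPs, 1.30 untreated and 1.32 after LPS, and also in the KO RIPs, 1.05 and 0.79. In WT, 35 of the 80 tested untreated and 28 of the 79 tested after LPS had at least 10 reads in the RIP and under 10 in the Input, so the WT medians rest in part on regions admitted through the RIP alone. In KO these were 4 of 66 and 12 of 67. Late strong regions had 1.09 and 1.08 in WT and 0.18 and 0.37 in KO, and biphasic regions 1.12 and 0.75 in WT and 0.15 and 0.19 in KO.

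The deposited MACS peaks, called for each RIP against its Input, give a further view of the same reads. A peak overlapped 13.0% of members in the untreated WT RIP and 25.1% in the LPS WT RIP, against 6.50% and 14.5% of all regions. In the KO RIPs the shares were 1.49% and 1.81%, against 1.04% and 1.14%. Of the members called toward WT, 63 of 118 untreated and 167 of 213 LPS regions had a WT peak. Of those called toward KO, 5 of 54 and 11 of 86 did, and of those tested and not called, 220 of 1167 and 374 of 1094. A call and a WT peak both use the WT RIP reads, so their overlap is no separate support for the calls.

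Turning to single 3'UTRs, the named member region of a gene is the one with the most reads. Csgalnact2, whose enzyme starts the chondroitin chain, was among the highest ratios under both treatments. It was at 205 CPM in the untreated WT RIP and 59.9 CPM in the KO RIP, and at 19.4 and 27.1 CPM in the Inputs. After LPS it was at 122 CPM in the WT RIP, 29.8 CPM in the KO RIP, and 6.32 and 9.32 CPM in the Inputs. The WT RIP was the highest library of each set while the WT Input was below the KO Input. The log2 ratio of the RIPs was 1.73 (95% interval 1.18 to 2.27, adjusted p = 2.04e-08) untreated and 1.99 (1.42 to 2.55, adjusted p = 2.52e-11) after LPS.

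Prkar2b encodes a regulatory subunit of protein kinase A. Its 3'UTR, with the CPE touching the hexamer, was at 66.6 CPM in the untreated WT RIP, 15 CPM in the KO RIP, and 5.38 and 9.80 CPM in the Inputs. With LPS it was at 124 CPM in the WT RIP, 18.4 CPM in the KO RIP, and 20.0 and 22.0 CPM in the Inputs. The LPS log2 ratio, 2.67 (1.96 to 3.37, adjusted p = 4.31e-15), was the largest of the called members that met the read minimum for naming, and the untreated ratio was 1.97 (0.94 to 3.01) on 7 KO reads.

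Hnrnpd encodes AUF1, a protein that binds AU-rich elements and promotes decay. It was at 53.4 CPM in the untreated WT RIP, 8.55 CPM (4 reads) in the KO RIP, and 16.1 and 30.2 CPM in the Inputs. With LPS the values were 77.0, 29.8, 31.1 and 39.9 CPM. In both treatments the KO RIP was below the KO Input and the WT RIP above the WT Input. The ratio of 2.34 (1.04 to 3.64, adjusted p = 0.00592) was the largest named for untreated cells, and it was 1.32 (0.74 to 1.90, adjusted p = 0.000248) after LPS.

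Other 3'UTRs with large untreated ratios came from genes of varied function. Ier3ip1, a small endoplasmic reticulum protein, was at 157 CPM in the untreated WT RIP and 32.1 CPM in the KO RIP, and at 198 and 63.1 CPM after LPS, with log2 ratios of 2.21 (1.48 to 2.93) and 1.63 (1.23 to 2.02). Mtdh (metadherin) was at 135 and 38.5 CPM untreated and at 312 and 174 CPM after LPS, with ratios of 1.74 and 0.83, both called. Thbs1, the secreted matrix protein thrombospondin 1, was at 88.8 and 23.5 CPM untreated with a ratio of 1.80. After LPS it was far more abundant, at 1020 and 779 CPM in the RIPs and 697 and 664 CPM in the Inputs, with a ratio of 0.39 that was under the fold limit. Ints9 (a subunit of the Integrator complex), Slc25a16 (a mitochondrial carrier) and Srd5a3 (an enzyme of dolichol synthesis) had untreated ratios of 1.95, 1.92 and 1.72 on 3, 7 and 6 KO reads.

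The remaining large LPS ratios included a chemokine. Cxcl1, which attracts neutrophils, had no read in either untreated Input and 2 reads in each untreated RIP. With LPS it was at 96.7 CPM in the WT RIP, 14.9 CPM in the KO RIP, 27.4 CPM in the WT Input and 8.65 CPM in the KO Input. The WT library was the higher of the pair in the Inputs too. The log2 ratio of the RIPs was 2.60 (1.82 to 3.37, adjusted p = 1.56e-11) and after subtracting the Inputs 1.01 (-0.14 to 2.16).

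Armc10 was the no-hexamer member of this list. It was at 99.0 CPM in the untreated WT RIP, 40.6 CPM in the KO RIP, and 17.2 and 21.1 CPM in the Inputs, and at 66.2, 14.9, 13.2 and 18.6 CPM after LPS. Its log2 ratio was 1.22 (0.55 to 1.89) untreated and 2.05 (1.26 to 2.84) after LPS, both called. Unlike Hnrnpd, its untreated KO RIP lay above the KO Input. Cpox, an enzyme of heme synthesis, had a ratio of 1.86 (1.14 to 2.57) after LPS and 0.25 (-0.38 to 0.88) untreated. Ubac2 had 2.12 after LPS on 6 KO reads, and 1810030O07Rik had 1.83 (1.22 to 2.43).

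Among the late strong 3'UTRs, the 4 with the most reads gave different results. Zdhhc21, a palmitoyltransferase, was at 333 CPM in the untreated WT RIP, 135 CPM in the KO RIP, and 85.0 and 109 CPM in the Inputs. With LPS it was at 492, 161, 135 and 101 CPM. The log2 ratio was 1.29 (0.91 to 1.66, adjusted p = 1.71e-09) and 1.61 (1.35 to 1.86, adjusted p = 1.52e-36). Snx18, a sorting nexin of endocytosis, was called in untreated cells alone, at 238 CPM in the WT RIP and 143 CPM in the KO RIP with a ratio of 0.72 (0.35 to 1.09), against 0.29 (0.14 to 0.44) after LPS. Edem1, of endoplasmic reticulum-associated degradation, and Rcc2, a mitotic protein, were not called, with untreated ratios of 0.37 (0.19 to 0.55) and 0.01 (-0.20 to 0.23).

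Of the biphasic 3'UTRs, Slc7a8, a transporter of neutral amino acids, was called under both treatments. It was at 152 CPM in the untreated WT RIP and 57.7 CPM in the KO RIP, with 158 and 153 CPM in the Inputs. After LPS it was at 499 and 241 CPM in the RIPs and 599 and 542 CPM in the Inputs. The WT RIP was thus close to the Input level while the KO RIP fell below it, unlike Csgalnact2. The log2 ratio was 1.35 (0.79 to 1.92, adjusted p = 0.00016) and 1.04 (0.83 to 1.26, adjusted p = 1.72e-20).

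Abi1, of the WAVE complex that drives actin assembly, was at 317 CPM in the LPS WT RIP and 220 CPM in the KO RIP, with a ratio of 0.52 (0.29 to 0.75) that just passed the fold limit. Untreated it was 0.39 (0.07 to 0.71) and not called. Slc19a2, a thiamine transporter, had ratios of 1.30 on 7 KO reads and 2.32 on 3 KO reads. Golga3, a Golgi protein, was not called, at -0.30 and -0.31, and both values were above 0 on library totals (the LPS value also with TMM).

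Of the 4 late weak 3'UTRs with the most reads, Tnfrsf1b is described below and the others showed little difference between the RIPs. Tet3, which oxidizes 5-methylcytosine, was at 591 CPM in the untreated WT RIP and 699 CPM in the KO RIP, a ratio of -0.24 (-0.42 to -0.06). Anxa4, a calcium-dependent phospholipid binder, was at 236 and 237 CPM, a ratio of -0.02 (-0.32 to 0.28). Neither was called, and both ratios were above 0 on library totals, that of Anxa4 also under the other scalings. Elmsan1 was at 0.29 (-0.12 to 0.69) untreated and -0.24 (-0.54 to 0.05) after LPS, the latter above 0 on library totals and with TMM.

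**Figure D5:**
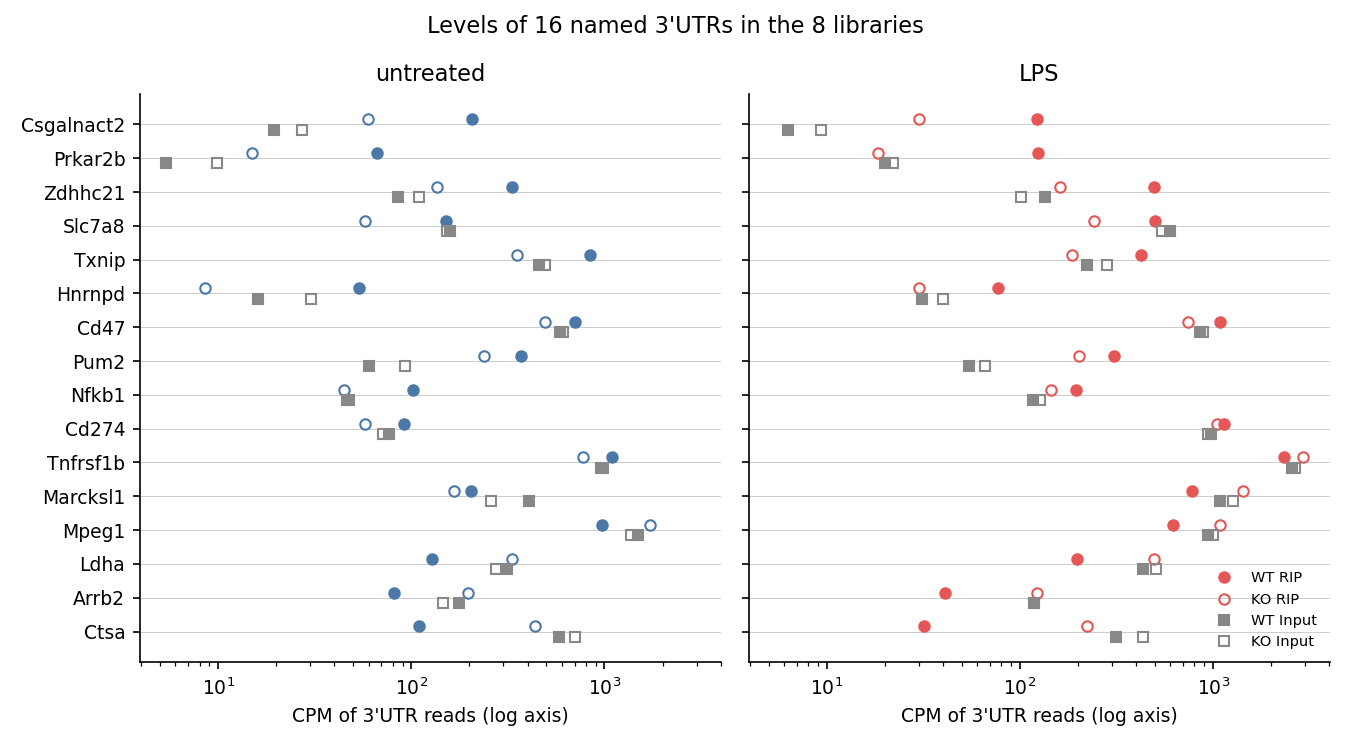
Levels of 16 named member 3'UTRs (y axis) in CPM of 3'UTR reads on a log axis (x axis), with the RIPs as circles and the Inputs as squares, WT filled and KO open. Csgalnact2 and Prkar2b have the WT RIP well to the right of the other 3 libraries (205 and 66.6 CPM untreated), and Ctsa and Arrb2 have it well to the left (109 and 81.6 CPM untreated).

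Of the members higher in the KO RIP, Ctsa had the lowest ratio named after LPS. Ctsa, the lysosomal protease cathepsin A, was at 109 CPM in the untreated WT RIP, 436 CPM in the KO RIP, and 584 and 706 CPM in the Inputs. With LPS it was at 31.7, 221, 314 and 434 CPM. Both RIPs were below their Inputs, the WT RIP further. The log2 ratio was -2.0 (-2.28 to -1.71, adjusted p = 6.85e-45) untreated and -2.79 (-3.17 to -2.42, adjusted p = 9.76e-61) after LPS, and it stayed called toward KO under each scaling tried.

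Ldha, a subunit of lactate dehydrogenase, was at 128 CPM in the untreated WT RIP, 331 CPM in the KO RIP, and 313 and 274 CPM in the Inputs. After LPS it was at 196, 495, 435 and 503 CPM. Its log2 ratio was -1.37 (-1.67 to -1.07) and -1.34 (-1.52 to -1.15). Here the KO RIP was near the Input level and the WT RIP below it. On library totals the ratios were -0.53 and -0.20 and not called.

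Arrb2 encodes beta-arrestin 2, which uncouples G protein-coupled receptors. It was at 81.6 CPM in the untreated WT RIP and 197 CPM in the KO RIP, and at 40.9 and 123 CPM after LPS. The log2 ratio was -1.27 (-1.65 to -0.89) and -1.58 (-1.97 to -1.19), and on library totals -0.43 and -0.44 and not called. Slc25a3, the mitochondrial phosphate carrier, had -1.44 (-1.91 to -0.97) untreated, on library totals -0.60 and not called. Ctsh, cathepsin H, had -1.56 (-2.09 to -1.04) after LPS, on library totals -0.42 and not called.

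Ccr2, the receptor of the monocyte chemoattractant CCL2, differed between the Inputs as well. It was at 23.4 CPM in the untreated WT RIP, 124 CPM in the KO RIP, and 15.1 and 50.5 CPM in the Inputs. After LPS it was at 5.22 and 16.1 CPM in the RIPs and 1.58 and 9.32 CPM in the Inputs. The KO library was the higher of every pair. The log2 ratio of the RIPs was -2.39 (-2.97 to -1.81, adjusted p = 3.50e-16) untreated, and after subtracting the Inputs it was -0.73 (-1.72 to 0.27).

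AA467197 was almost without reads in untreated cells, with 5 reads in the WT RIP and none in the KO RIP. With LPS it was at 151 CPM in the WT RIP, 387 CPM in the KO RIP, and 154 and 218 CPM in the Inputs. Its ratio was -1.36 (-1.57 to -1.15), on library totals -0.22 and not called.

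The member 3'UTRs with the most Input reads were Tnfrsf1b, Mpeg1, Pfkfb3, Ago2, Marcksl1 and Cd47. Cd47, the "do not eat me" surface protein, was the one higher in the WT RIP under both treatments. It was at 708 CPM against 494 CPM untreated and 1090 CPM against 737 CPM after LPS, with Inputs of 591 and 612 CPM and of 856 and 887 CPM. The log2 ratio was 0.52 (0.31 to 0.72) and 0.57 (0.44 to 0.69). Mpeg1, the pore-forming perforin-2 of macrophages, was higher in the KO RIP, at 970 CPM against 1730 CPM untreated and 623 CPM against 1090 CPM after LPS. Its ratios of -0.84 and -0.81 were above 0 on library totals (0.01 and 0.33).

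Tnfrsf1b encodes TNF receptor 2. The WT RIP was higher untreated, at 1100 CPM against 778 CPM, and lower after LPS, at 2340 CPM against 2930 CPM, while the Inputs stayed level at 986 and 960 CPM and at 2550 and 2640 CPM. The log2 ratio of 0.50 (0.34 to 0.66) untreated and -0.32 (-0.39 to -0.26) after LPS did not pass the fold limit, and the latter was 0.82 on library totals. Marcksl1, an actin-binding protein, went from 203 and 167 CPM untreated to 781 and 1430 CPM after LPS, with a ratio of -0.87 (-0.98 to -0.77) after LPS that was 0.27 on library totals. Pfkfb3, an activator of glycolysis, rose in the WT Input from 102 to 1360 CPM with LPS, and its LPS ratio of -0.28 (-0.37 to -0.18) was 0.86 on library totals.

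Of 30 classic CPE-regulated mRNAs listed, 25 were in the table and 7 had a member region. Txnip, an inhibitor of thioredoxin, was the one called, under both treatments, of 5 tested untreated and 3 tested after LPS. Over all genes 6.91% and 11% had a region higher in the WT RIP. Txnip was at 842 CPM in the untreated WT RIP, 351 CPM in the KO RIP, and 460 and 493 CPM in the Inputs, and at 423, 185, 222 and 281 CPM after LPS. The WT RIP was the highest and the KO RIP the lowest library both times. The log2 ratio was 1.26 (1.02 to 1.49, adjusted p = 2.05e-24) and 1.19 (0.95 to 1.43, adjusted p = 6.29e-21).

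The cell cycle members of that list were scarce in these cells. Mad2l1, of the spindle checkpoint, had 3 reads in each untreated Input but was at 79.2 CPM in the WT RIP and 135 CPM in the KO RIP, with a ratio of -0.78 (-1.21 to -0.35) that was not called and was 0.06 on library totals. Kif11, a spindle motor, fell in the WT Input from 19.4 to 1.05 CPM with LPS, and its untreated ratio was 0.46 (-0.27 to 1.19). Cpeb3, a paralog of Cpeb4, was at 22.8 CPM in the untreated WT RIP and 17.1 CPM in the KO RIP, a ratio of 0.28 (-0.76 to 1.33).

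Of 54 negative regulators of the LPS response, 7 had a member region and all 7 were tested. Socs3, which restrains cytokine signaling, was called toward WT in untreated cells on 42 and 3 reads, with a ratio of 1.59 (0.12 to 3.07). It was the 1 gene of the 7 called toward WT untreated, against 6.91% of all genes. With LPS it reached 1140 CPM in the WT RIP, 1040 CPM in the KO RIP, and 1080 and 1140 CPM in the Inputs, with a ratio of 0.13 (0.02 to 0.24). All 4 LPS libraries were thus within a narrow range in the main scaling. On library totals this ratio, like every LPS ratio of the RIPs, was higher by 1.14. Cd274 (PD-L1) was similar, at 1140, 1050, 972 and 941 CPM after LPS and a ratio of 0.11 (0.00 to 0.22).

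In the same list, Tax1bp1 and Tnip2, adaptors of the deubiquitinase A20, were called toward KO after LPS, 2 of 7 genes tested against 17.5% of all genes. Tax1bp1 was at 58.2 CPM in the WT RIP and 110 CPM in the KO RIP, a ratio of -0.93 (-1.30 to -0.56), which was 0.21 on library totals. Tnip2 had 36 and 30 reads and a ratio of -1.26 (-1.95 to -0.57), which was not called under the other 3 scalings. Nfkbiz and Cyld, regulators of NF-kB, were not called under either treatment, with LPS ratios of 0.13 and 0.50. The list's median was 0.34 untreated and 0.13 after LPS, beside -0.13 and -0.10 over all regions.

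Of 42 cytokine, chemokine and prostaglandin genes in the table, 5 had a member region, and none of the 5 reached 10 reads over the untreated RIP pair. With LPS all 5 were higher in both Inputs than untreated. Over all regions 12.9% in WT and 13.7% in KO were higher with LPS in the Input. Il1b (interleukin-1 beta) was at 438 CPM in the LPS WT RIP and 786 CPM in the KO RIP, with 518 and 509 CPM in the Inputs. The ratio was -0.84 (-0.98 to -0.71, adjusted p = 7.85e-31) and became 0.30 on library totals. Cxcl1 was thus called toward WT and Il1b toward KO, while Tnfsf10 (TRAIL), Cxcl9 and Ccl12 were not called, with ratios of 0.16, -0.57 (above 0 on library totals) and 0.60.

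Of 65 LPS signaling genes, 6 had a member region. Tab2, an adaptor of the kinase TAK1, was called after LPS, at 346 CPM in the WT RIP and 218 CPM in the KO RIP, with Inputs of 109 and 120 CPM and a ratio of 0.66 (0.43 to 0.89). Untreated it was at 277 and 184 CPM, a ratio of 0.58 (0.25 to 0.91) with an adjusted p of 0.0402 that missed the threshold. Nfkb1, the biphasic 3'UTR of the NF-kB precursor p105, was at 102 and 44.9 CPM untreated, a ratio of 1.13 (0.49 to 1.77) with an adjusted p of 0.0271, and at 194 and 145 CPM after LPS, a ratio of 0.41 (0.13 to 0.70). Ikbkg (NEMO), Tbk1, Stat6 and Tank were not called under either treatment.

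Of 58 genes for mRNA decay and 3'UTR-binding proteins in the table, 11 had a member region. Hnrnpd and Pum2 were called toward WT under both treatments, of 11 tested untreated and 10 after LPS, and no gene of the list was called toward KO. Over all genes 6.91% untreated and 11% after LPS were called toward WT, and 11.4% and 17.5% toward KO. Pum2, a Pumilio protein that binds the element TGTANATA, was at 368 CPM in the untreated WT RIP, 239 CPM in the KO RIP, and 60.3 and 92.8 CPM in the Inputs. After LPS it was at 307, 201, 54.3 and 65.9 CPM. Both RIPs were far above both Inputs, and the log2 ratio of the RIPs was 0.61 (0.32 to 0.90) untreated and 0.61 (0.37 to 0.84) after LPS.

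The miRNA effectors of this list were not called. Ago2, the slicing Argonaute, was at 693 CPM in the untreated WT RIP and 738 CPM in the KO RIP, a ratio of -0.09 (-0.27 to 0.08) that was 0.75 on library totals. Ago3 and Tnrc6b (a GW182 scaffold protein) had untreated ratios of 0.22 (-0.09 to 0.54) and -0.22 (-0.50 to 0.06), and the latter was above 0 on library totals and with TMM. Dcp1a, a late strong 3'UTR of a decapping factor, had 0.84 (0.32 to 1.36) untreated with an adjusted p of 0.0751, and 0.40 (0.10 to 0.71) after LPS.

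LPS itself changed the Inputs of members about as often as those of other regions. In WT 180 of 1242 members were higher with LPS and 178 lower, against 12.9% and 15.4% of all regions. In KO 195 of 1252 were higher and 250 lower, against 13.7% and 19.0%. The median log2 ratio was 0.03 in WT and -0.18 in KO. Among the named genes Socs3 (7.53 to 1080 CPM in WT), Pfkfb3, Cd274 and Il1b stood out on the rising side, and Txnip (460 to 222 CPM) and Kif11 on the falling side.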

How the data were processed

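Members, gene lists and tests were chosen with earlier results of these data known. Per the labels and the study's methods, the authors aligned reads to mm10 with Bowtie2 2.2.2 in local mode, removed duplicates, and deposited whole-number counts of reads over Ensembl 3'UTR regions, with both lanes summed. The deposited RPKM values divide those counts by region length and library total, and served here to recover the totals. The deposited MACS 1.4.2 score of a region is its highest peak score, with 0 for no peak, and the deposited width (another number, in bases) was used as given. Bowtie2 and MACS versions are also in the submitters' processing notes. Whether reads were counted by strand is not given in the sources used here.

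Of 31117 rows, 495 without a symbol were left out of tests and library sums. Reads were scaled to the sum over the 30622 rows with a symbol. Pairs of libraries were compared with a two-sided Pearson chi-square test and Benjamini-Yekutieli adjustment over all regions with at least 10 reads, and log2 ratios had 1 read added. Intervals are 95% and come from the counts. Classes were re-derived from the mm10 sequence, the pentamer AUUUA, the hexamer TTTTGT and base composition were counted there, and transcript types came from the GENCODE annotation.

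Named were, per gene with its most-read member region, the 8 highest called ratios per treatment with at least 50 WT RIP reads, the 5 lowest with at least 50 KO RIP reads (both with 10 reads in each Input), the 6 with most Input reads, the 4 with most reads per class other than early weak, and up to 6 per gene list with at least 50 RIP reads. Alternatives covered scaling (library totals, TMM from edgeR 4.0.16, median-of-ratios), read minimum, added reads, repeated regions, Input correction and other tests. The edgeR exact test used a preset biological coefficient of variation of 0.4. A minimum of 10 reads in each RIP was chosen after seeing the data. The calling code was tested on simulated data. Python 3.11.15, scipy 1.17.1 and R 4.3.3 were used. Cell type markers served only to check the cultures.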

Additional observations from a re-analysis of the deposited data

Results flagged for a closer look

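For 7 named members the RIP ratio of WT to KO (log2) differed between LPS and untreated cells by the z test with Benjamini-Hochberg adjustment over 7844 regions. It rests on 1 library per group, and the cause was not tested. A change of scaling shifts such a difference equally for every region. Library totals raised the ratios by 0.84 untreated and 1.14 after LPS, so negative differences shrink and positive ones grow. Which of the 7 pass under other scalings was not tested. The difference, LPS minus untreated, was -0.82 for Tnfrsf1b (adjusted p = 1.01e-16), which went from 0.50 to -0.32. It was -1.14 for Marcksl1 (adjusted p = 6.13e-07), from 0.27 to -0.87. It was -0.80 for Ctsa (adjusted p = 0.0468), whose ratio was toward KO both times. It was 1.48 for Mad2l1 (adjusted p = 0.00801), from -0.78 to 0.71, with 26 reads in the LPS KO RIP. It was 1.60 for Cpox (adjusted p = 0.0477), from 0.25 to 1.86. It was 1.02 for Ikbkg (adjusted p = 0.0498), from -0.44 to 0.59, and 0.44 for Ago2 (adjusted p = 0.0252), from -0.09 to 0.34. None of the 7 was called in opposite directions. After subtracting the Inputs, the ratio went from 0.46 to -0.28 for Tnfrsf1b and from -1.73 to -2.33 for Ctsa. It went from -0.39 to -0.65 for Marcksl1, from 1.04 to 1.66 for Cpox and from 0.12 to -0.02 for Ago2. Each step was smaller than the difference above, and that of Ago2 had the opposite sign. Mad2l1 had no such value untreated. The z test used ratios without this subtraction.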

How the results depend on the processing

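No paired analysis was possible because each genotype, treatment and assay has 1 library and the 2 lanes of a library were deposited as 1 count column, which also leaves no replicate to leave out. The main limits are this single library per genotype, treatment and assay, the shallow KO RIPs and the scaling. The untreated count of 118 members toward WT became 631 on library totals, 227 with TMM, 76 with 1 region per gene, 78 with at least 10 reads in each RIP (chosen after seeing the data) and 9 with the edgeR exact test at a preset biological coefficient of variation of 0.4. The untreated 54 toward KO became 5, 32, 27 (1 region per gene), 32 (at least 50 reads) and 2 (edgeR). The LPS count of 213 toward WT became 963 on library totals, 444 with TMM, 336 with median-of-ratios factors, 135 with 1 region per gene and 16 with edgeR. The LPS 86 toward KO became 4, 33, 53, 50 and 4, and 54 with at least 50 reads and 131 with at least 1 read. The member median above all regions, 0.29 untreated, was 0.21 with at least 50 reads, 0.43 with at least 1 read and 0.40 after Input correction. The LPS value of 0.35 was 0.25, 0.52 and 0.41, and 0.29 with 1 region per gene. None of these distances changed sign, but with at least 1 read the untreated member median itself fell from 0.16 to -0.08. The exact binomial test, Benjamini-Hochberg adjustment, 0.1 added reads, the peak score criterion and counting repeated coordinates once kept every count within 1.5 times.

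Library totals turned the ratios of these named genes above 0. Untreated these were Mpeg1 0.0065, Ago2 0.75, Tet3 0.60, Anxa4 0.82, Tnrc6b 0.62, Ctsh 0.08, Golga3 0.54, Mad2l1 0.06, Tax1bp1 0.56, Tnip2 0.49, Ikbkg 0.40, Tbk1 0.47 and Stat6 0.20. After LPS they were Tnfrsf1b 0.82, Mpeg1 0.33, Pfkfb3 0.86, Marcksl1 0.27, Tet3 1.09, Elmsan1 0.90, Golga3 0.83, Tax1bp1 0.21, Il1b 0.30, Tbk1 0.88, Ago3 0.99, Tnrc6b 1.14, Slc25a3 0.34, Cxcl9 0.57 and Stat6 0.40. Input correction turned Ccr2 after LPS to 0.63, on 3 reads in the WT Input. Input correction also ended the calls of Srd5a3 untreated (1.16) and Ints9 after LPS (1.04). The causes of these changes were not tested.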
